A study of Mus musculus with 2 samples.

Results

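DNA methyltransferases and methyl-CpG binding proteins were examined in whole testes of mice at day 10 after birth, in homozygous mutants (Mili-/-) and in heterozygotes (Mili+/-). The members were Dnmt1, Dnmt3a, Dnmt3b, Mbd1, Mbd2, Mbd3, Mbd4 and Uhrf1, taken as every probe set annotated to exactly 1 of these symbols. This gave 9 probe sets for 7 of the 8 genes, out of 10833 probe sets with 1 symbol for 8251 genes. Dnmt3b had no such probe set and is not analysed here. Each genotype was measured on 1 array, from poly(A) RNA. The groups differ in the copies of the Mili mutation, and no fully wild-type testis was included. The labels give neither the strain, the way the mutant allele was made, nor the number of mice behind each array. According to them, spermatogenesis in the mutant stops in early meiotic prophase, and the age was chosen because dying cells appear from day 11. MILI is the product of Piwil2, for which the array annotation gave no probe set, so the mutation itself could not be checked in the RNA.

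DNA methylation is laid down on unmodified CpG sites by de novo enzymes, among them DNMT3A and DNMT3B. It is copied after replication by the maintenance enzyme DNMT1, which UHRF1 brings to hemimethylated DNA. Proteins with a methyl-CpG binding domain then read the mark. MILI is a Piwi protein whose bound small RNAs, the piRNAs, direct de novo methylation to retrotransposons in fetal male germ cells, so the writers and readers form the layer on which this pathway acts. At day 10 the germ cells are spermatogonia and early spermatocytes set among Sertoli cells, a stage that follows the fetal wave of de novo methylation.

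The start regions of 3 members are shown because the results turn on them: Dnmt3a, which has starts for a long and a short form and whose probe set was not assigned to either, Mbd4, which had the lowest difference between the arrays, and Mbd3, which had the highest among the members bright enough to compare. Each sequence is the 250 bases before an annotated start in RefSeq (build GRCm38.p6), on the gene's strand, with every CG dinucleotide, the target of these enzymes, in capitals.
Dnmt3a, long form, chr12:3806910-3807159, plus strand: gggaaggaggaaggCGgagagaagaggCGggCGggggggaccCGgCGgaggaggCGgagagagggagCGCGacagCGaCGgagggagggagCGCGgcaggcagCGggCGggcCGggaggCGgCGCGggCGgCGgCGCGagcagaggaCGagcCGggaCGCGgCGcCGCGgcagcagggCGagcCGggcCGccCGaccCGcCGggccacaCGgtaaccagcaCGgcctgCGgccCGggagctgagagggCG
Dnmt3a, start inside the gene, chr12:3891494-3891743, plus strand: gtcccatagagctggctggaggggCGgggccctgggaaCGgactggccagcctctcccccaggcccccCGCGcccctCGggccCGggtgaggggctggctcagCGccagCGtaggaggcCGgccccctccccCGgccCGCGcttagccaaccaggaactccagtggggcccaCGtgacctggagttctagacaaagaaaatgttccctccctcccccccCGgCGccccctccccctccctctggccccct
Mbd4, chr6:115853342-115853591, minus strand: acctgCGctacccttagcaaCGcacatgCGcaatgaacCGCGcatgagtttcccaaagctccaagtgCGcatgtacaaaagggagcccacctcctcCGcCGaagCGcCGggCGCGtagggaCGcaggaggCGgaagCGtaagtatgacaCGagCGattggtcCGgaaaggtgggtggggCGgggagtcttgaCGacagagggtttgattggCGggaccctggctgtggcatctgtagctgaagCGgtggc
Mbd3, chr10:80399532-80399781, minus strand: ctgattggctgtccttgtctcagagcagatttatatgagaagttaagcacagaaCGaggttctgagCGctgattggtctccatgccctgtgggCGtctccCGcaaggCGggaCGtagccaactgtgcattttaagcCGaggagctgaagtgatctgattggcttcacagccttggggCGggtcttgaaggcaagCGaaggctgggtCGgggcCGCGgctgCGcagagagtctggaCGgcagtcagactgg

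The window of the long Dnmt3a form held 40 CG dinucleotides, and only 1.31% of the 32851 windows of this length in the RefSeq table held as many. The window inside the gene, from which the shorter DNMT3A2 known from germ cells and embryonic stem cells is made, held 15. An upstream window that overlaps that of the long form, chr12:3806730-3806979, belongs to a further annotated start and held 38. Mbd4 had 22 and Mbd3 had 14, against a median of 6 over all windows. Dnmt1 had 3 annotated starts with 26, 7 and 2 CG dinucleotides, and Uhrf1 had 2 starts with 30 and 10. The arrays report transcript levels only, and neither the methylation of these windows nor the use of any one start was measured.

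Values are deposited signal intensities, which are linear and can be compared between the arrays for 1 probe set but not between probe sets. Differences are log2 of Mili-/- over Mili+/- after each array was centred on its median. Centring took away a shift of 0.11 (log2, higher in Mili-/-). A probe set was counted as bright if it reached the median signal on at least 1 array, which was 41.5 in Mili-/- and 38.5 in Mili+/-. Of the 10833 probe sets, 5909 passed, and their median difference was -0.12. RNA integrity, taken as the Actb control signal near the 3' end over that near the 5' end, was 1.52 for Mili-/- and 1.53 for Mili+/-. Testis markers were present on both arrays: the germ cell helicase gene Ddx4 had signals of 243.9 in Mili-/- and 245.6 in Mili+/-. The centred difference of Ddx4, -0.12, was the highest of 11 bright spermatogonial markers, whose median was -0.44. The spermatid protamine gene Prm1 lay under the floor of each array, at 3.1 in Mili-/- and 2.8 in Mili+/-.

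With 1 array per genotype there was no replicate error and no test. The only measurable error was how far several probe sets for 1 gene disagreed, which does not include differences between animals or hybridisations. Its SD was 0.31 over 720 genes. It was 0.44 for the dimmest tercile of probe sets, 0.25 for the middle and 0.18 for the brightest, so a difference of given size is less certain for Dnmt3a, Mbd1, Mbd2 and Mbd4, which were all in the dimmest tercile, than for Dnmt1 and Mbd3 in the brightest.

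No member differed 2-fold between the arrays among the 7 bright probe sets, in either direction, where 0.626% of all bright probe sets were 2-fold lower and 0.355% 2-fold higher in Mili-/-. The transcripts of the maintenance pair Dnmt1 and Uhrf1 and of the readers Mbd1 and Mbd3 lay within 1.2-fold on the 2 arrays after centring. Dnmt3a, Mbd2 and Mbd4 were 1.51-fold to 1.68-fold lower in Mili-/- after centring. As deposited, Mbd3 was 1.28-fold higher in Mili-/-. None of the 7 centred differences exceeded 2 SD of probe sets of like brightness. For Mbd3 this depended on the scaling. In its tercile 2 SD was 0.36, computed from centred values only. The difference of Mbd3 was 0.38 after quantile normalization and 0.38 after loess.

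**Figure D1:**
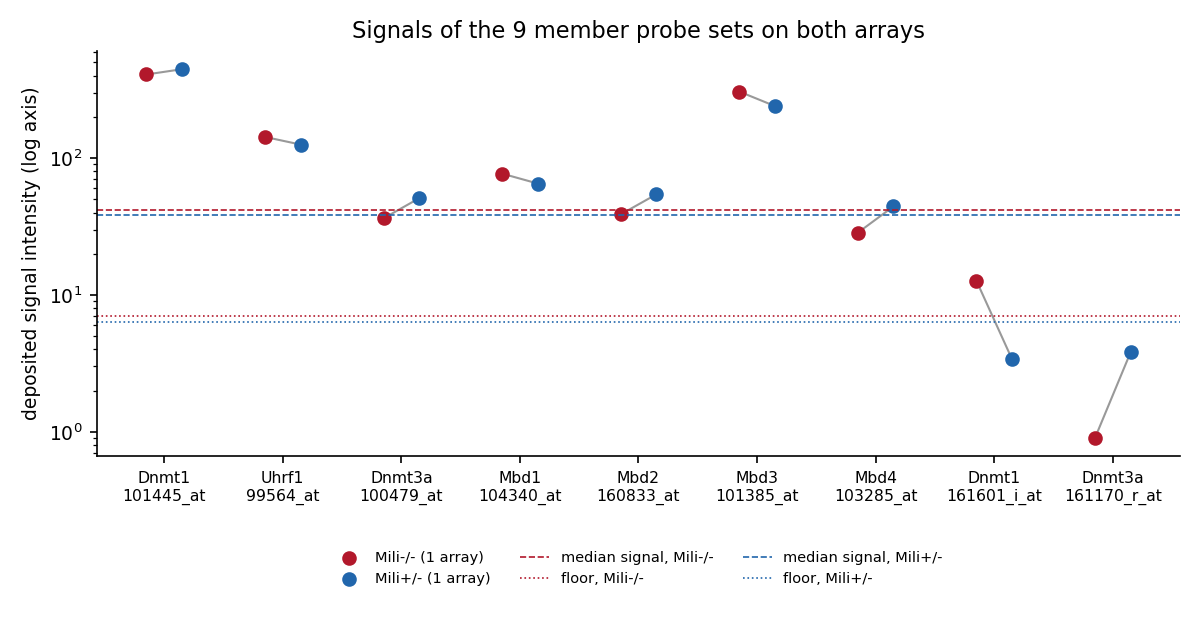
Deposited signal intensity (log axis) of the 9 member probe sets in the Mili-/- array (red, left of each pair) and the Mili+/- array (blue, right). Dashed lines mark each array's median and dotted lines its floor. Dnmt3a, Mbd2 and Mbd4 cross from below the Mili-/- median to above the Mili+/- median, and the 2 probe sets at the right lie near or under the floor.

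Dnmt1, the maintenance methyltransferase that copies methylation to the new strand in S phase, gave 408.4 on the Mili-/- array and 446.5 on the Mili+/- array. The log2 difference was -0.24, 1.18-fold lower in Mili-/-. That is 1.31 SD of probe sets of like brightness, and relative to the median of all bright probe sets it was -0.12. A further Dnmt1 probe set, whose suffix (_i_at) marks relaxed probe selection, was dim, at 12.7 in Mili-/- and 3.4 in Mili+/-. Its Mili+/- signal lay under the floor of 6.3, and the difference against that floor, 0.90, went the other way from that of the bright probe set.

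Uhrf1 encodes the ring finger protein that recognises hemimethylated CpG sites and recruits DNMT1. Its signal was 142.8 in Mili-/- and 125.6 in Mili+/-, a log2 difference of 0.075. It lay on the higher side under all 4 scalings tried, between 0.075 and 0.22. The differences of Uhrf1 and Dnmt1 stood 0.31 apart, against a combined SD of 0.31 for the pair, a contrast that does not depend on centring.

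Dnmt3a encodes a de novo enzyme that methylates imprinted regions in male germ cells together with the cofactor DNMT3L. Its signal was 36.3 in Mili-/- and 50.9 in Mili+/-. The log2 difference was -0.60, a 1.51-fold lower signal in Mili-/- and 1.35 SD of probe sets of like brightness. Of all bright probe sets, 4.98% were as low or lower, but this probe set was bright in Mili+/- alone. The 246 probe sets that passed the filter in this way had a median of -0.49. The other Dnmt3a probe set, with the suffix _r_at for relaxed probe selection, had 0.9 in Mili-/- and 3.8 in Mili+/-, both under the floor, so it gave no difference and does not bear on the first. The cofactor gene Dnmt3l had no probe set with 1 symbol and is not analysed here.

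The difference of Dnmt3a minus that of Dnmt1 was -0.36, against a combined SD of 0.48. The contrast of de novo and maintenance enzyme was thus smaller than the combined error of the 2 probe sets.

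Mbd1 binds methylated CpG sites and recruits histone H3 lysine methylation through SETDB1. Its signal was 77.0 in Mili-/- and 65.2 in Mili+/-, a log2 difference of 0.13. At 0.29 SD of probe sets of like brightness, the arrays did not differ beyond probe set error.

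Mbd2 and Mbd3 encode alternative subunits of the NuRD chromatin remodelling and deacetylase complex. MBD2 binds methylated DNA, while the mammalian MBD3 binds it weakly or not at all. Mbd2 gave 38.8 on the Mili-/- array and 54.3 on the Mili+/- array, a log2 difference of -0.59 or 1.51-fold lower in Mili-/-. Like Dnmt3a, Mbd2 was bright in Mili+/- alone, a selection that leans low. The 246 such probe sets had a median of -0.49, which also widens the gap between Mbd2 and Mbd3. Mbd3 had 306.3 in Mili-/- and 240.2 in Mili+/-, a log2 difference of 0.24 or 1.18-fold higher. This was the highest difference of the bright members, and 11.0% of all bright probe sets were as high or higher. In the brightest tercile alone the central 90% of differences ran from -0.46 to 0.20, and Mbd3 lay above it. Mbd2 lay inside that of the dimmest tercile, -0.69 to 0.64. The differences of Mbd3 and Mbd2 stood 0.84 apart, 1.74 times their combined SD of 0.48. These pairs of members were picked after their values were seen.

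Mbd4 encodes a DNA glycosylase that removes thymine or uracil mispaired with guanine, the products of deaminated CpG sites, and binds methylated CpG through its other domain. Its signal was 28.5 in Mili-/- and 44.3 in Mili+/-. The log2 difference of -0.75, 1.68-fold lower in Mili-/-, was the lowest of the members, and 118 of the 5909 bright probe sets were as low or lower. That rank leans low by selection, since Mbd4 was bright in Mili+/- alone, where 246 such probe sets had a median of -0.49. The difference of Mbd4 amounted to 1.68 SD of probe sets of like brightness, and to -2.40 times the SD of 0.31 over all bright probe sets.

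**Figure D2:**
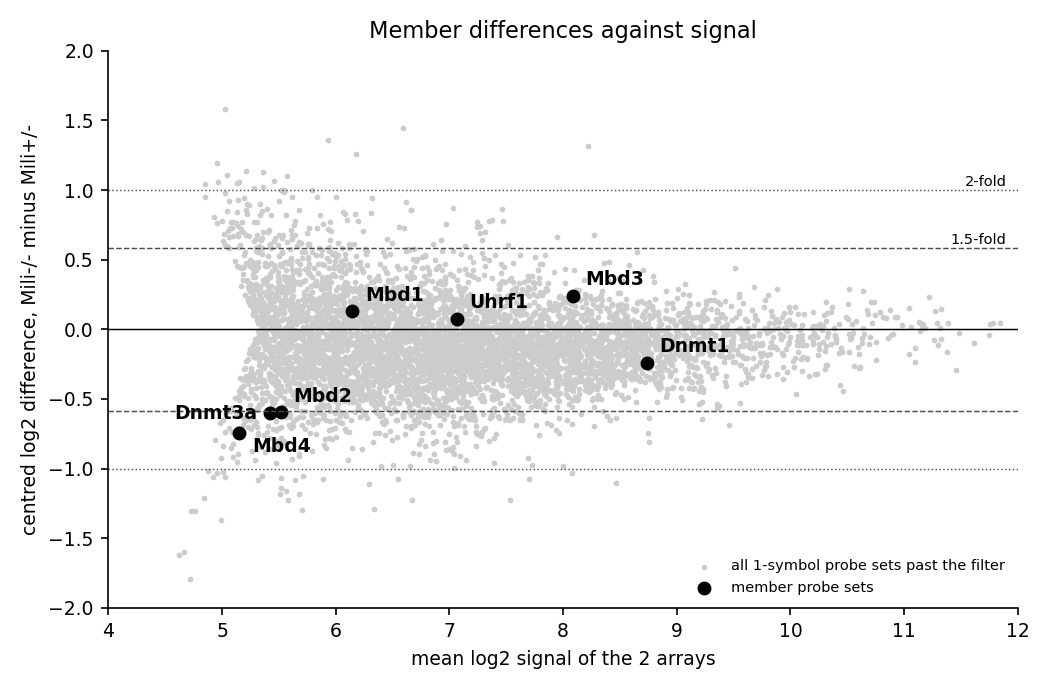
Centred log2 difference (Mili-/- minus Mili+/-) against the mean log2 signal of both arrays for all 5909 bright probe sets with 1 symbol (grey) and the 7 bright member probe sets (black, named). Dashed and dotted lines mark 1.5-fold and 2-fold, and 8 probe sets beyond 2 log2 units are not drawn. Dnmt3a, Mbd2 and Mbd4 lie at the dim end where the grey cloud is widest. Dnmt1, Uhrf1 and Mbd1 lie inside the cloud and nearer 0, and Mbd3 lies above the central 90% of the brightest tercile.

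At a 1.5-fold threshold, 3 of the 7 bright member probe sets (Dnmt3a, Mbd2 and Mbd4) were lower in Mili-/- and 0 were higher. Of all bright probe sets, 5.28% were 1.5-fold lower (312) and 2.61% higher (154). With the values as deposited, without centring, 155 were lower and 239 higher, and only Mbd4 of the members passed. The 3 members owed their place among the bright probe sets to their Mili+/- signal, a selection that leans towards lower values in Mili-/-: of the 246 probe sets that passed in this way, 38.6% were 1.5-fold lower. Among the 4 members bright on both arrays, 0 were 1.5-fold lower, where 3.99% of 5433 such probe sets were, and 0 were higher, where 1.09% were. With no brightness filter, 3 of all 9 member probe sets were 1.5-fold lower, where 7.52% of 10833 were, and 1 was higher, the dim Dnmt1 probe set, where 6.82% were. The median of the 7 bright members was -0.24, against -0.12 for all bright probe sets.

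The scaling decided whether Dnmt3a and Mbd2 reached 1.5-fold but no direction of a bright member. Dnmt3a stood between -0.60 and -0.49 under the 4 scalings, Mbd2 between -0.59 and -0.48, and Mbd4 between -0.75 and -0.64. Mbd3 stood between 0.24 and 0.38, Mbd1 between 0.13 and 0.24, and Dnmt1 between -0.24 and -0.12. Relative to the median of all bright probe sets, with centring, Mbd4 was at -0.62 (1.54-fold lower), Dnmt3a at -0.48 and Mbd2 at -0.47, while Mbd3 was at 0.36, Mbd1 at 0.25 and Uhrf1 at 0.20.

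**Figure D3:**
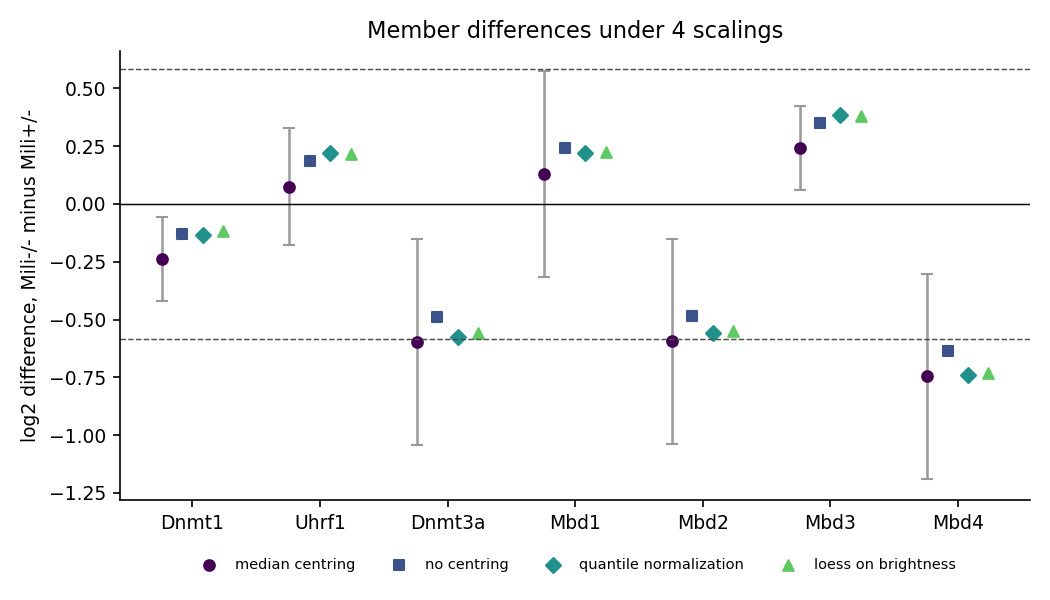
Log2 difference (Mili-/- minus Mili+/-) of the 7 bright member probe sets under 4 scalings of the arrays. Grey bars are 1 SD between probe sets of one gene in the member's brightness tercile, drawn on the centred value, and dashed lines mark 1.5-fold. No point changes sign between scalings, and the bars of the dim members Dnmt3a, Mbd2 and Mbd4 reach across the 1.5-fold line.

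Other genes of the methylation machinery were taken from lists, with each gene read by its brightest probe set. Over all 5095 bright genes the median difference was -0.13, 5.04% were 1.5-fold lower and 2.47% 1.5-fold higher. Replication-coupled partners of DNMT1 and UHRF1 had a median of -0.26 over 10 bright genes of 11 listed, with 1 gene 1.5-fold lower and 0 higher. The lowest were Cdca7l (152.7 in Mili-/- and 212.9 in Mili+/-, -0.59) and the clamp loader gene Rfc1 (184.9 in Mili-/- and 237.0 in Mili+/-, -0.47). Cdca7, whose protein activates the remodeller HELLS, stood at -0.38, and Pcna, the sliding clamp that DNMT1 binds at the fork, at -0.33. The remodeller gene Hells itself was at -0.27. Usp7, which encodes a deubiquitinase of DNMT1 and UHRF1, was at -0.25, but its other bright probe set was at 0.47.

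Partners in de novo and repressive histone methylation had a median of -0.28 over 11 bright genes of 23 listed, with 1 gene 1.5-fold lower and 0 higher. Setdb1, the H3K9 methyltransferase of retrotransposon silencing, had signals of 268.6 in Mili-/- and 330.8 in Mili+/- (-0.41). Its corepressor partner Trim28 had 1540 in Mili-/- and 1559 in Mili+/- (-0.13), at the median of all genes. The heterochromatin protein gene Cbx5 was the highest, at 0.41, with another probe set at -0.05.

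NuRD and Sin3 partners of MBD2 and MBD3 had a median of -0.30 over 11 bright genes of 20 listed, with 0 genes 1.5-fold lower and 0 higher. The mitotic kinase gene Aurka stood at -0.50, the Sin3 scaffold gene Sin3a at -0.37, the NuRD subunit gene Gatad2a at -0.37 with other probe sets at -0.05 and -0.21, and Wdr77, a partner of the arginine methyltransferase PRMT5, at -0.34. The deacetylase genes Hdac1 (-0.26) and Hdac2 (-0.30) and the histone chaperone genes Rbbp4 (-0.23) and Rbbp7 (-0.32) lay close together. The NuRD ATPase gene Chd4, whose probe set carries the _f_at suffix for probes shared within a gene family, stood at -0.030. The difference of Mbd3, 0.24, was higher than that of each of these 11 partners, of which Sin3b was the highest at 0.088.

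Base excision and demethylation partners of MBD4 had a median of -0.14 over 14 bright genes of 27 listed, with 0 genes 1.5-fold lower and 0 higher. The mismatch repair gene Pms2 was at -0.43, the uracil glycosylase gene Ung at -0.37 with another probe set at 0.35, the polymerase gene Polb at -0.30 and the adenine glycosylase gene Mutyh at -0.30. Mbd4, at -0.75, lay below all of them. Genes that supply S-adenosylmethionine, the methyl donor, had a median of -0.11 over 8 bright genes of 23 listed. The only one past 1.5-fold was Bhmt (14.6 in Mili-/- and 41.5 in Mili+/-, -1.62), an enzyme of methionine synthesis in liver, which was bright in Mili+/- alone. Another Bhmt probe set, dim on both arrays, went the other way (12.5 in Mili-/- and 8.3 in Mili+/-, 0.48). Of the others, Gamt stood at 0.34 with another probe set at 0.03, Mat2b at -0.24 and Shmt1 at -0.19. Other CpG-binding proteins had a median of -0.088 over 4 bright genes of 13 listed, with 0 genes 1.5-fold lower and 0 higher. Among them the insulator gene Ctcf was at -0.44, Baz2a at -0.15, Mbd6 at -0.028 and Cxxc1 at 0.029. The median of the S-adenosylmethionine list was 0.0063 after loess and 0.00056 when all probe sets of a gene were averaged, and that of the CpG-binding list was 0.022 without centring, 0.051 after quantile normalization and 0.044 after loess.

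Dnmt1 and Uhrf1 are transcribed mostly in dividing cells. DNA replication and proliferation genes had a median of -0.16 over 25 bright genes of 27 listed, with 2 genes 1.5-fold lower and 0 higher. The primase gene Prim1 was at -0.96 and bright in Mili+/- alone, the proliferation marker gene Mki67 at -0.71, Prim2 at -0.53 and Cdc45 at -0.48. Dnmt1, at -0.24, lay among these genes, while Uhrf1, at 0.075, was above every gene of the list but Rpa2 (0.29).

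**Figure D4:**
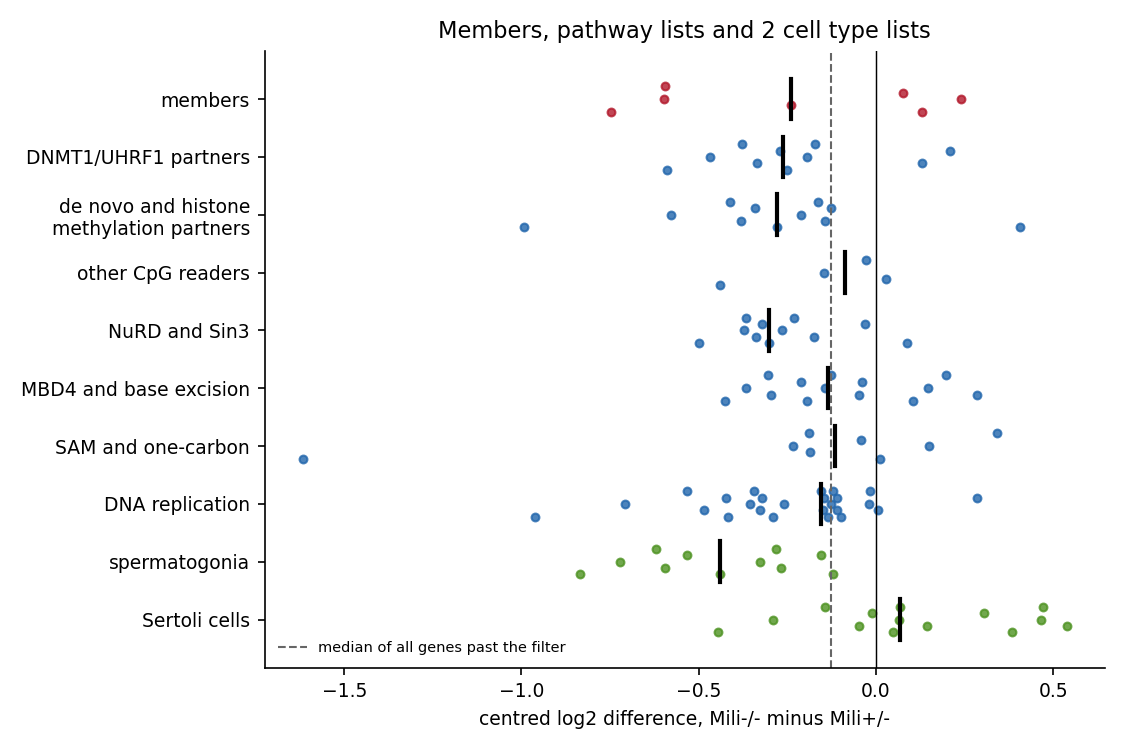
Centred log2 difference (Mili-/- minus Mili+/-) of the bright member probe sets (red), of bright genes in 7 pathway lists (blue) and of bright spermatogonial and Sertoli cell markers (green). Black bars are list medians and the dashed line is the median of all bright genes, -0.13. The members run from -0.75 to 0.24, spermatogonial markers lie to the left of the dashed line but for 1 gene, and most Sertoli markers lie to its right.

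Some of the 10 lists of cell type markers also differed between the arrays. In RNA of whole testis, fewer cells of a type and less RNA per cell cannot be told apart. Of 17 spermatogonial markers, 13 were on the array and 11 were bright, with a median of -0.44. Of these, 4 were 1.5-fold lower and 0 higher, where 5.04% of 5095 bright genes were lower and 2.47% higher. Kit (-0.62) and Ccnd1 (-0.60) passed 1.5-fold (0.585 in log2) by less than the shift of 0.11 that centring took away. Of the 11, 2 were bright in Mili+/- alone, Sall4 with the lowest difference (-0.84) and Id4. The summed signal of the 13 was 3249.7 in Mili-/- and 3820 in Mili+/-. Summed signals are as deposited, without the centring that took away a shift of 0.11, and the genes with the highest signals weigh most in them. None of the 13 was at 0, and Ret was under the floor on both arrays. Early meiotic markers summed to 451 in Mili-/- and 554.5 in Mili+/- over 6 of 14 genes. Of 17 Sertoli cell markers, 14 were on the array and bright, with a median of 0.067. Their summed signal was 6787 in Mili-/- and 5902 in Mili+/-, of which Clu alone gave 2636 in Mili-/- and 2363 in Mili+/-. Adipose markers summed to 821 in Mili-/- and 549 in Mili+/- over 8 of 10 genes. Their median was 0.64 over 7 bright genes, of which 4 were 1.5-fold higher, 0 were lower and 3 were bright in Mili-/- alone. Passing the filter in that way leans high: the 230 such probe sets had a median of 0.48. Erythroid markers summed to 2093 in Mili-/- and 1551 in Mili+/- over 7 of 9, most of it from Hba-a1 (1828 in Mili-/- and 1397 in Mili+/-). The erythroid median was 0.80 over 4 bright genes, of which 3 were 1.5-fold higher, 0 were lower and 2 were bright in Mili-/- alone. Medians of the other marker lists were -0.021 for pachytene cells and spermatids (6 bright genes) and -0.23 for Leydig cells (5). They were 0.038 for peritubular and stromal cells (11), 0.29 for macrophages (6) and 0.10 for endothelium (4). The part of cell composition in the members' differences was not tested.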

How the data were processed

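Testis RNA of 1 Mili-/- and 1 Mili+/- sample was measured on single-colour Affymetrix mouse arrays. The authors deposited 1 signal intensity per probe set and array on a linear scale; from the values, the authors appear to have scaled both arrays alike, since the mean without the lowest and highest 2% was 100.05 on each. Of the software and background correction used, nothing is given in the sources used here.

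The table held 12488 probe sets, of which 66 controls were left out. A platform annotation gave 1 symbol for 10833, several for 396 and none for 1193; symbols were updated through the Entrez ID (10817 matched, RefSeq GRCm38.p6). The deposited intensities were floored at each array's 20th percentile (7.0 in Mili-/- and 6.3 in Mili+/-), converted to log2 and centred on the median. Probe sets of a member were kept apart; lists used the brightest probe set of a gene. The filter asked the brighter array to reach its median.

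The SD between probe sets of one gene came from 1533 bright probe sets. The number of arrays limits the precision, and no p-value is given. Named were all members and, from each list, up to 4 genes with the largest absolute difference. Hells, Usp7, Trim28, Hdac1, Hdac2, Rbbp4, Rbbp7, Chd4, Sin3b, Rpa2, Ezh2 and Eed were chosen after their values were seen. So were the marker genes Ddx4, Prm1, Ret, Sall4, Id4, Kit, Ccnd1, Clu and Hba-a1. Members, lists and thresholds were chosen with earlier results of these data known. Alternatives changed the scaling, the floor, the filter and the treatment of suffixed or multiple probe sets. The code was tested on simulated data. Python 3.11.15, NumPy 2.4.6, pandas 2.3.3, statsmodels 0.14.6 (loess, span 0.4) and matplotlib 3.10.9 were used.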

Additional observations from a re-analysis of the deposited data

How the results depend on the processing

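Of 161 values recomputed under an alternative, 150 moved by less than the SD between probe sets of one gene or, for counts, by at most 1.5 times, and 11 moved further. That SD, 0.31, describes single probe sets and is wider than the shift of 0.11 that centring took away. All 70 recomputed medians of pathway lists therefore fell within it, also where their sign changed. The count of 150 is thus no measure of how stable the results are. The count of members 1.5-fold lower, 3 as reported, was 1 without centring, 1 after quantile normalization and 1 after loess (Mbd4 each time), and 0 when the brighter array had to reach its 75th percentile and also when both had to reach their median, settings that leave out Dnmt3a, Mbd2 and Mbd4. The count 1.5-fold higher, 0 as reported, was 1 with no filter, the dim Dnmt1 probe set. The median of the bright members, -0.24 as reported, was 0.075 when the brighter array had to reach its 75th percentile and 0.10 when both had to reach their median, for the same reason. With no filter it was 0.042, which is the value of the Dnmt3a probe set that lay under the floor on both arrays. The dim probe set of Dnmt1 stood at 1.79 with no floor and 0.024 with one at the 40th percentile, and that of Dnmt3a at -2.19 with no floor, so neither has a usable value. The count of members past 2-fold was 0 under each alternative run. No paired analysis was possible because each genotype had 1 array, and for the same reason no replicate could be left out.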

Other observations

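Genes of Polycomb repressive complex 2, which methylates lysine 27 of histone H3, were part of the histone methylation list. Suz12, a core subunit, had the lowest difference of that list, with signals of 96.7 in Mili-/- and 178.4 in Mili+/- (-0.99), while its other 2 probe sets went opposite ways. One, bright in Mili+/- alone, had 29.7 in Mili-/- and 44.3 in Mili+/- (-0.69), and the other, dim on both arrays, had 26 in Mili-/- and 16.9 in Mili+/- (0.51). Ezh1, 1 of the alternative catalytic subunits, had 110.4 in Mili-/- and 152.7 in Mili+/- (-0.58). The other catalytic subunit gene Ezh2 stood at -0.28, and the core subunit gene Eed at -0.16 was close to the median of all bright genes. No replicate array tests any of these differences.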
